A study of Mus musculus with 16 samples.

Results

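Solute carriers are the membrane proteins that move amino acids, ions, metals, nucleotides, sugars and metabolites into cells, out of cells and between compartments, and in mouse nearly all of their genes carry the prefix Slc with a family number, a letter and a member number. The 155 genes described here are those named in this way whose level averaged at least 5 CPM (counts per megaread of the library) over 16 heart libraries, of 16118 genes in the deposited table. The glucose transporters (Slc2a), the monocarboxylate transporters (Slc16a), Slc8a1, Slc1a1, Slc17a7, Slc25a20 and Slc27a1 were left out by name. Of 257 names of this form, 174 reached 5 CPM and 19 of those were left out by name, while 76 others, of families and names that were kept, lay under 5 CPM. The genes were thus chosen by their name and their mean level over all libraries, to which both chambers and both genotypes contribute, and the rule itself uses no difference between groups. A gene near the limit can still pass only through the group where it is high. Just inside the limit lay Slc24a4 (5.08 CPM), Slc36a2 (5.16), Slc25a27 (5.16) and Slc8a2 (5.30), and just outside it lay Slc35g2 (4.99), Slc7a14 (4.93), Slc35e4 (4.50) and Slc35f1 (4.34).

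Each of 8 E15.5 mouse embryos gave 1 atrial and 1 ventricular library, with the outflow tract removed. The 4 double knockout (dKO) embryos were Meis1flox/flox; Meis2flox/flox; aMHC tg/wt and the 4 control embryos were Meis1flox/flox; Meis2flox/flox; aMHC +/+, so that all 8 carried floxed alleles of these homeobox transcription factors and the dKO embryos alone carried the Cre transgene under the alpha-myosin heavy chain promoter, which is active in cardiomyocytes. Presence of Cre and deletion therefore cannot be told apart and the cells in which the deletion took place were not measured. The series design names a deletion that is constitutive or inducible without saying which applies here. Replicate numbers below name embryos within a genotype, and an embryo keeps its number in both chambers. The protocol speaks of 4 litters with 1 control and 1 dKO embryo each, but the numbers in the sample titles put 2 control and 2 dKO embryos under 1 number, called the balanced title number below, 2 control embryos and 1 dKO embryo under another, and 1 dKO embryo under the third.

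Recovered reads ranged from 7.88 to 23 M (megareads) per library and were fewest in dKO ventricles (7.88 to 14.3 M against 15.6 to 23 M in control ventricles). The level of Meis1 was 26.1 ± 3.19 CPM in dKO atria against 40.4 ± 2.61 CPM in control atria (SD, n = 4 each), and 40.9 ± 2.41 against 41.5 ± 3.96 CPM in ventricles. Meis2 was lower in dKO ventricles (23.4 ± 2.85 against 39.2 ± 3.46 CPM) and not in dKO atria (26.5 ± 1.90 against 25.4 ± 2.05 CPM). In counts over the whole gene, each targeted gene was thus lower beyond its spread in 1 chamber, Meis1 in atria and Meis2 in ventricles, and a transcript that lacks an exon is still counted. All 5 atrial myocyte markers on the list used were lower and all 5 ventricular ones higher in control ventricles than in control atria, as the chamber labels say. These are bulk libraries, in which fewer cells of a type and less RNA per cell cannot be told apart.

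In heart muscle, the transporters of the plasma membrane set the gradients of sodium, potassium, chloride, calcium and phosphate on which contraction and pH rest, and bring in the amino acids, creatine, taurine and nucleosides that growing myocytes use. Carriers of the inner mitochondrial membrane (family 25) exchange ADP for ATP, import phosphate and move reducing equivalents between cytosol and mitochondria. Families 30, 31, 39, 40 and 41 handle zinc, copper, iron and magnesium, and families 33, 35 and 37 supply the Golgi apparatus and the endoplasmic reticulum.

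The 155 genes were sorted into substrate classes by family number alone, so that single members can differ from their class in substrate or place. These classes held 30 carriers of amino acids, peptides and osmolytes, 25 of inorganic ions, 22 of metals, 30 mitochondrial carriers, 21 of nucleotide sugars and other Golgi or endoplasmic reticulum substrates and 27 of vitamins, nucleosides, carnitine, fatty acids and other organic solutes. The 155 genes belong to 40 families. Their median mean level was 21.5 CPM, and the most abundant was Slc25a4, the ADP/ATP carrier of heart and muscle, at 1407 CPM. Levels per kilobase of exon were taken over the union of all annotated exons of a gene and had a median of 3.86 CPM per kb. The transcripts expressed can be shorter than this union, so that comparisons between genes are approximate. The 5 highest were all mitochondrial carriers, namely Slc25a4 (598 CPM per kb), the ADP/ATP carrier Slc25a5 (211), the phosphate carrier Slc25a3 (115), the oxoglutarate carrier Slc25a11 (64.1) and Slc25a39 (37.9), a carrier needed for mitochondrial glutathione. The next were Slc38a2 (36 CPM per kb) and Slc38a4 (35.7), which take up neutral amino acids with sodium, the zinc transporters Slc39a7 (33.4) and Slc39a1 (32.3), and Slc35f5 (26.1). Within a group of 4 libraries a typical member varied little, and the median standard error of a log2 difference was 0.0959 in atria and 0.0908 in ventricles.

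The comparison of dKO with control tissue asks, in each chamber, which transporter genes differ when Meis1 and Meis2 are deleted. In atria 5 of the 155 genes rose and 7 fell in dKO against control libraries, where 4.04% of all genes tested rose and 3.43% fell. Slc7a7, an exchanger of cationic amino acids, fell the most, to 40.5% of its control level, and the mitochondrial aspartate-glutamate carrier Slc25a13 and the arginine transporter Slc7a1 rose the most, to 149.5% and 146% of control. In ventricles 3 rose and 3 fell, where 0.989% of all genes tested rose and 1.01% fell. Slc40a1, the iron exporter ferroportin, rose and Slc25a30, a mitochondrial carrier, fell in both chambers. These calls were weak, since that of Slc40a1 in atria was lost in 11 of 18 alternative fits and that of Slc25a30 in ventricles in 14 of 18.

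A gene was called at a limma adjusted p under 0.05, with log2 differences taken on log2(CPM + 1). The 12 atrial calls are 7.74% of the members, against 7.47% of the 13950 genes tested and 8.23% of the 11192 genes at 5 CPM or more, so that transporter genes were called in dKO atria about as often as genes in general. The 6 ventricular calls are 3.87%, against 2% of genes tested and 2.24% of those at 5 CPM or more. The median member differed by log2 0.01 in atria and 0.00 in ventricles, where the median of all genes tested was -0.00 and -0.02. In atria the dKO and control libraries did not overlap for 15 members that were higher (9.68%, against 7.29% of genes tested) and 14 that were lower (9.03% against 6.82%). In ventricles this held for 8 members that were higher (5.16% against 3.33%) and 13 that were lower (8.39% against 4.78%). Of the 143 members not called in atria, 114 differed by less than 0.2 on the log2 scale, and so did 124 of the 149 not called in ventricles. Among the 4 embryos of the balanced title number, 7 members were called in atria, 6 of them among the 12. None were called there in ventricles (limma), with 12 at an unadjusted p under 0.05 and 2 embryos against 2. The other title numbers hold too few embryos for a comparison of their own. The number of atrial calls fell to 6 without control atrium 1 and to 7 without control atrium 2. In ventricles it fell to 3 without control library 1 or 3 or dKO library 3 or 4, and to 2 without dKO library 1. With the scaling of another method (TMM, a trimmed mean of ratios between libraries) the atrial split was 4 higher and 9 lower.

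**Figure D1:**
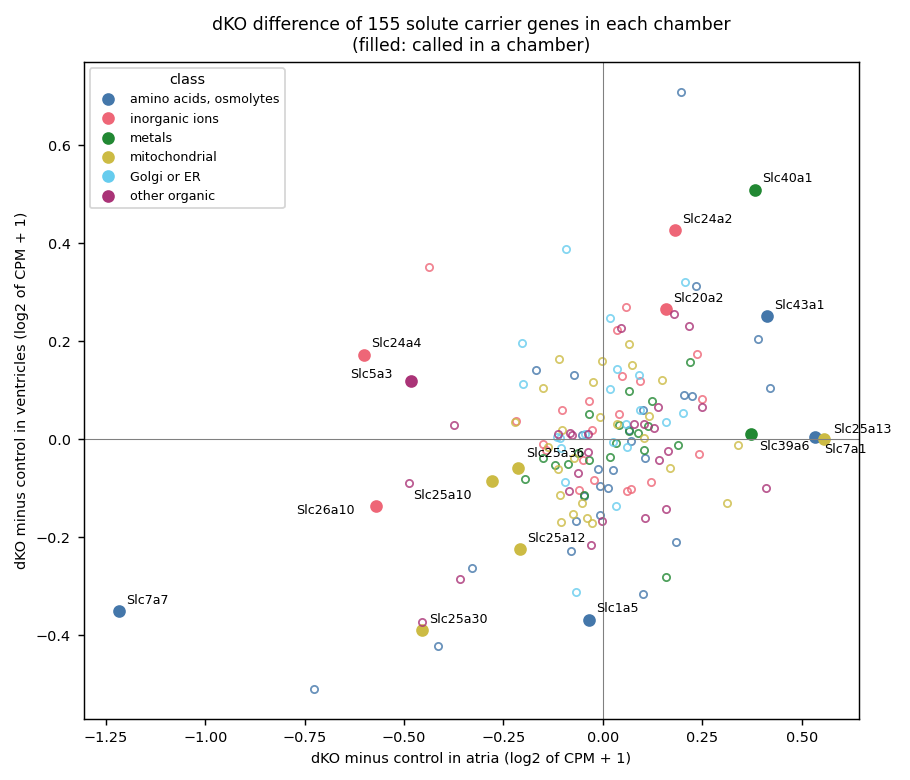
Each point is 1 of the 155 solute carrier genes. The horizontal axis gives the dKO minus control difference in atria and the vertical axis that in ventricles, both on log2(CPM + 1), with colours for the 6 substrate classes and filled, named points for the 16 genes called in at least 1 chamber. Slc7a7 lies farthest to the left at -1.22, Slc40a1 is the called gene highest up at 0.51, and most open points lie close to the crossing of the zero lines.

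Among the 30 carriers of amino acids, peptides and osmolytes, 2 rose and 1 fell in dKO atria and 1 fell in dKO ventricles. For this class and each class below, 7.47% of all genes tested were called in atria and 2% in ventricles, and no class was tested as a set. Slc7a7 (ENSMUSG00000000958, chromosome 14, 54369442 to 54417780, GRCm38) is the light chain y+LAT1, which exports arginine and lysine in exchange for neutral amino acids. It measured 21.6, 28.2, 23.4 and 27 CPM in control atria and 9.65, 10.6, 10.8 and 9.59 CPM in dKO atria. In ventricles the control libraries measured 7.39, 6.60, 6.98 and 6.61 CPM and the dKO libraries 5.26, 4.62, 5.58 and 5.32 CPM. Control atria stood above all other libraries, and dKO atria lay closer to control ventricles than to control atria. The atrial difference was log2 -1.22 ± 0.10 (SE, limma adjusted p = 2.53e-05) and was called in every alternative fit. In ventricles the groups did not overlap either, but the difference of -0.35 ± 0.11 was not called (adjusted p = 0.181). The exons of Slc7a7 overlap those of Oxa1l on the opposite strand and the use of strand is not given in the sources used here. Oxa1l measured 71.9 ± 7.23 CPM in control and 70.4 ± 7.48 CPM in dKO atria (log2 -0.03, adjusted p = 0.89). Slc3a2, the heavy chain with which Slc7a7 pairs at the membrane, measured 55.1 ± 4.32 CPM in control and 53.3 ± 4.54 CPM in dKO atria (log2 -0.05, adjusted p = 0.788).

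Slc7a1 (ENSMUSG00000041313, chromosome 5, 148327410 to 148399904) is the transporter CAT1, the main route of arginine uptake in many cells. Its level was 42.9, 42.5, 35.5 and 38.2 CPM in control atria and 57.8, 66.6, 60.4 and 48.2 CPM in dKO atria, a rise of log2 0.53 ± 0.10 (adjusted p = 0.00681) that was called in every alternative fit. Control ventricles lay at 54.1 ± 3.32 CPM and dKO ventricles at 54.3 ± 3.98 CPM, so that dKO atria reached the ventricular range. Slc43a1, a transporter of large neutral amino acids, measured 8.55, 8.58, 8.16 and 9.48 CPM in control atria and 12.3, 11.4, 11.2 and 12.8 CPM in dKO atria. All 4 dKO atria were higher, by log2 0.41 ± 0.09 (adjusted p = 0.0169), but the call was lost without control atrium 2 (adjusted p = 0.0518) and within the balanced title number (0.36, adjusted p = 0.147). Slc1a5, the glutamine carrier ASCT2, was called in ventricles, where it measured 41.2, 44.3, 47.8 and 45.3 CPM in control and 36, 35, 33.9 and 32.6 CPM in dKO libraries. It fell by 0.37 ± 0.06 on the log2 scale (adjusted p = 0.007), while atria measured 18 ± 1.79 CPM in control and 17.6 ± 2.37 CPM in dKO embryos (-0.03, adjusted p = 0.899). Within the balanced title number its ventricular difference was -0.30 (adjusted p = 0.285).

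Promoter sequence is shown for Slc7a7, Slc7a1, Slc25a13 and Slc24a4, 4 of the 5 genes whose atrial dKO calls held in every alternative fit (the fifth, Slc39a6, is not shown), since Meis proteins are known to bind the core TGACAG. The letters are the 250 bases before an annotated start in RefSeq (GRCm38.p6), read 5′ to 3′ along the gene's strand, with TGACAG or its reverse complement CTGTCA in capitals. The windows lie at chr14:54417945-54418194 (Slc7a7, minus strand), chr5:148399905-148400154 (Slc7a1, minus strand), chr6:6217174-6217423 (Slc25a13, minus strand) and chr12:102128477-102128726 (Slc24a4, plus strand).
Slc7a7: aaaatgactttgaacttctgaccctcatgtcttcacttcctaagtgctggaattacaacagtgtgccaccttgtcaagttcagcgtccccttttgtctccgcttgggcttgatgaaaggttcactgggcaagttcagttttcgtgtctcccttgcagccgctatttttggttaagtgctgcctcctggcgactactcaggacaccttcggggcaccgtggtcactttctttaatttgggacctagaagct
Slc7a1: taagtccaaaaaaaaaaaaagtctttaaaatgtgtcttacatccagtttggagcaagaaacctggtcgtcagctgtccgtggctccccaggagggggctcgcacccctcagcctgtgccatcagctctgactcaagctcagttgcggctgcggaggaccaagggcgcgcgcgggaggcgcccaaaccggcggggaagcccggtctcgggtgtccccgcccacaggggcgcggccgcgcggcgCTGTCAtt
Slc25a13: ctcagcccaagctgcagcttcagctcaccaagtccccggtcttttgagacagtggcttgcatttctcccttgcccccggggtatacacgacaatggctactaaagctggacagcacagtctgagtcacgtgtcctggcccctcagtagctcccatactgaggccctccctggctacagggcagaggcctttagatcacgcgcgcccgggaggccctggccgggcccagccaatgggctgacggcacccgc
Slc24a4: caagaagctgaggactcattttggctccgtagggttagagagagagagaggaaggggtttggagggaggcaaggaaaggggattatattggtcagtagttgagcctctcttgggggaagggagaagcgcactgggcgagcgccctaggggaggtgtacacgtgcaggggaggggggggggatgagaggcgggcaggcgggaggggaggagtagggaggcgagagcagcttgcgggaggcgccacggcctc
The Slc7a1 window holds 1 match, which begins 8 bases before the start, and the windows shown for Slc7a7, Slc25a13 and Slc24a4 hold none. For Slc7a7, the further starts at 54410203 and 54409472 have no match in their 250 bases, and those at 54417702 and 54417679 share 1 match. The match lies 29 bases before the start at 54417702. For Slc7a1, a further start at 148392815 has a match 240 bases before it. Both matches are shown with neighbouring bases.
Slc7a7, further start: tccgcgtctggcTGACAGctagggctggac
Slc7a1, further start: gagctggcctTGACAGtgactctagtgggc
Over all members, 38 of 164 windows (23.2%) held at least 1 match on either strand, against 15.9% of all 32851 windows in the RefSeq promoter table and 13.6% of the 11099 windows of genes at 5 CPM or more in these hearts. By gene, 30 of the 118 members with a sequence (25.4%) had a match, against 18% of the 27025 genes of the promoter table and 16.1% of the 8628 at 5 CPM or more, and 2 of the 12 such members called in a dKO comparison (16.7%). A match of 6 letters describes the window and shows no binding.

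The 30 mitochondrial carriers gave 1 rise and 3 falls in dKO atria and 2 falls in dKO ventricles. Slc25a13 (ENSMUSG00000015112, chromosome 6, 6041218 to 6217173), known as citrin, carries aspartate out of mitochondria in exchange for glutamate, as does its close relative Slc25a12, known as aralar. Slc25a13 measured 18.6, 20.0, 18.6 and 22.2 CPM in control atria and 32.5, 29.6, 30.3 and 26.2 CPM in dKO atria. Every dKO atrium was higher than every control atrium, by log2 0.56 ± 0.09 (adjusted p = 0.00232), and the call held in every alternative fit. Ventricles measured 69.2 ± 3.55 CPM in control and 69.2 ± 2.27 CPM in dKO embryos. Slc25a12 was lower in dKO libraries of both chambers and was called in ventricles. It measured 116, 117, 112 and 125 CPM in control ventricles and 101, 103, 97.9 and 99.7 CPM in dKO ventricles, with no overlap, and fell by 0.22 ± 0.05 on the log2 scale (adjusted p = 0.0239). In atria the difference was -0.21 ± 0.06 (adjusted p = 0.0579), with 103 ± 8.12 CPM in control and 88.9 ± 0.634 CPM in dKO libraries. Per kilobase of exon, Slc25a13 made up 27.1% ± 1.06 of the sum of both carriers in control atria and 39.2% ± 2.17 in dKO atria, and 53.2% ± 1.35 in control and 57.1% ± 0.362 in dKO ventricles (SD, n = 4). The size of these shares depends on the exon lengths used. The ventricular call of Slc25a12 was lost without control library 1, 2 or 4 or dKO library 1, 3 or 4 (log2 -0.23 to -0.19, adjusted p 0.0538 to 0.0783), with the title number as a covariate (0.0562) and within the balanced title number (0.343).

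**Figure D2:**
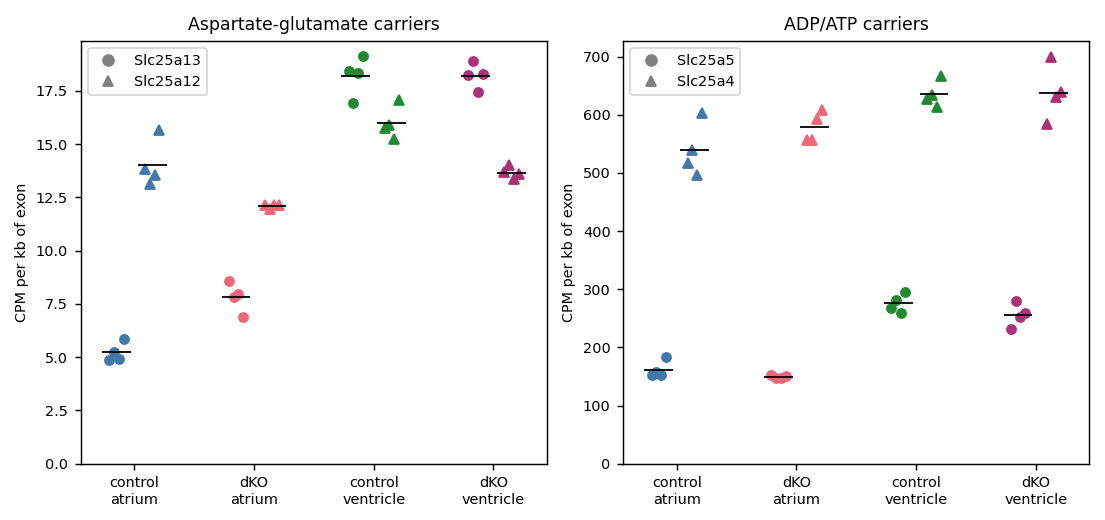
Levels of both aspartate-glutamate carriers (left) and both ADP/ATP carriers (right) in CPM per kilobase of exon on linear axes from 0, with 1 point per library and the group mean as a bar. Slc25a13 rises from 5.22 in control to 7.81 in dKO atria and stands at 18.2 in both ventricle groups, while Slc25a4 stays above Slc25a5 in all 4 groups.

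Slc25a30 (ENSMUSG00000022003, chromosome 14, 75760117 to 75787037), a carrier of the inner membrane first described in kidney, fell in both chambers. Atria measured 13.5, 15, 12.3 and 12.5 CPM in control and 11, 8.81, 9.07 and 8.99 CPM in dKO libraries, and ventricles 27, 26.2, 28 and 22 CPM against 17.3, 19.7, 19.6 and 21.1 CPM. Neither chamber's groups overlapped. The difference was -0.45 ± 0.10 in atria (adjusted p = 0.0192) and -0.39 ± 0.09 in ventricles (adjusted p = 0.0473). The atrial call was lost without control atrium 1 or 2 or dKO atrium 2 or 3 (log2 -0.45 to -0.40, adjusted p 0.0562 to 0.0669). The ventricular call lay close to the threshold and was lost in 14 of 18 alternatives, among them edgeR (adjusted p = 0.0552) and the fits without control library 1, 2 or 3 or any 1 dKO library (log2 -0.43 to -0.34, adjusted p 0.056 to 0.147). Slc25a36, a carrier of pyrimidine nucleotides, measured 70.6, 74.5, 69.0 and 71.2 CPM in control and 62.6, 64.0, 59.6 and 59.5 CPM in dKO atria (log2 -0.21 ± 0.05, adjusted p = 0.0293). Without control atrium 1, 2 or 4 or dKO atrium 3 its adjusted p was 0.0681 to 0.102 (log2 -0.22 to -0.19), and within the balanced title number it was 0.0826 (-0.23). Slc25a10, the dicarboxylate carrier, measured 26.6, 24.7, 23.6 and 27.6 CPM in control and 19.1, 21.5, 21.9 and 21.2 CPM in dKO atria (log2 -0.28 ± 0.08, adjusted p = 0.0495). Its call was lost in 11 of 18 alternatives, among them every fit that left out a library other than control atrium 3 (log2 -0.30 to -0.24, adjusted p 0.0563 to 0.137). The abundant carriers were not called in either chamber. Slc25a4 measured 1268 ± 110 CPM in control and 1360.2 ± 61.9 CPM in dKO atria (log2 0.10, adjusted p = 0.531), and Slc25a3 measured 589.6 ± 38 and 545 ± 14.6 CPM (log2 -0.11, adjusted p = 0.349).

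Of the 22 metal transporters 2 rose in dKO atria and 1 rose in dKO ventricles. Slc40a1 (ENSMUSG00000025993, chromosome 1, 45908068 to 45926523) encodes ferroportin, the known route of iron export from cells. Atria measured 25.0, 26.8, 23.1 and 19 CPM in control and 33.9, 31, 30.2 and 27.9 CPM in dKO libraries. Ventricles measured 18.8, 20.4, 16.3 and 15.1 CPM in control and 27.6, 25.3, 22.8 and 26 CPM in dKO libraries. The dKO libraries were higher than all control libraries in each chamber. The rise was log2 0.38 ± 0.10 in atria (adjusted p = 0.0466) and 0.51 ± 0.10 in ventricles (adjusted p = 0.0175). The atrial call was lost in 11 of 18 alternatives, among them edgeR (adjusted p = 0.0548) and the fits without control atrium 1, 3 or 4 or dKO atrium 1, 2 or 3 (log2 0.29 to 0.41, adjusted p 0.0688 to 0.108). The ventricular call was lost without control library 3 or 4 or dKO library 1 or 4 (log2 0.44 to 0.50, adjusted p 0.0512 to 0.0621), and within the balanced title number the differences were 0.23 in atria (adjusted p = 0.155) and 0.28 in ventricles (0.559). Macrophages, which recycle iron, express ferroportin. The 7 macrophage markers summed to 88.6 to 146 CPM in dKO and 89.0 to 103 CPM in control atria, with 1 of 7 called by limma (C1qb, higher). In atria edgeR and DESeq2 also called 1 each. An unadjusted p under 0.05 was reached there by 3 in limma and by 5 each in edgeR and DESeq2. Within the balanced title number 4 of 7 were called in atria. In ventricles the markers summed to 71.2 to 81.0 CPM in dKO and 67.7 to 78.7 CPM in control libraries. There 0 of 7 were called by limma, edgeR or DESeq2, with 1 at an unadjusted p under 0.05 in limma. Their part in the Slc40a1 difference was not tested. Slc39a6, the zinc importer ZIP6, measured 28.5, 27.7, 31.2 and 26.1 CPM in control and 34.8, 37.8, 37.1 and 38.1 CPM in dKO atria. It rose by log2 0.37 ± 0.07 (adjusted p = 0.00685) in every alternative fit, and ventricles measured 29.6 ± 1.28 and 29.8 ± 2.12 CPM.

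Among the 25 carriers of inorganic ions, 2 fell in dKO atria and 2 others rose in dKO ventricles. Members of family 24 exchange sodium for calcium together with potassium. Slc24a4 (ENSMUSG00000041771, chromosome 12, 102128733 to 102267091) measured 10.8, 11.4, 9.28 and 11 CPM in control and 6.22, 7.15, 6.84 and 6.38 CPM in dKO atria, a fall of log2 -0.60 ± 0.10 (adjusted p = 0.00373) in every alternative fit. In ventricles it lay near 1 CPM, at 1.38 ± 0.481 in control and 1.68 ± 0.552 in dKO libraries. The mean of Slc24a4 over all libraries, 5.08 CPM, lay just inside the limit for members and rests most on control atria. The member rule thus favours a fall of this gene in dKO atria. Slc24a2 measured 17.6, 18.1, 19.3 and 19.2 CPM in control and 25.4, 24.3, 26.5 and 24.9 CPM in dKO ventricles. It rose by log2 0.43 ± 0.07 (adjusted p = 0.00578), and of 18 alternatives only the fit within the balanced title number lost the call (0.48, adjusted p = 0.142). In dKO atria Slc24a2 was spread from 18.7 to 34.8 CPM, across the control range of 20.1 to 24.9 CPM. Slc20a2, the phosphate transporter PiT-2, measured 104, 111, 99.7 and 106 CPM in control and 129, 128, 133 and 117 CPM in dKO ventricles (log2 0.27 ± 0.05, adjusted p = 0.0175). Without control library 1 or 3 or dKO library 1 or 3 its adjusted p was 0.0522 to 0.0653 (log2 0.24 to 0.26), and within the balanced title number it was 0.142 (0.28). Its exons overlap Smim19 on the opposite strand. Slc26a10, of a family of anion exchangers, measured 14, 12.3, 12.5 and 11.5 CPM in control and 8.89, 9.38, 8.47 and 6.13 CPM in dKO atria (log2 -0.57 ± 0.13, adjusted p = 0.0188). Its call was lost without control atrium 1 or 2 (log2 -0.58 to -0.52, adjusted p 0.0517 to 0.0625) and within the balanced title number (adjusted p = 0.0576). The exons of Slc26a10 overlap B4galnt1 on the opposite strand, a gene at 1.70 ± 0.311 CPM in control and 1.23 ± 0.514 CPM in dKO atria.

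The 27 carriers of other organic solutes gave 1 fall in dKO atria, with 8 at an unadjusted p under 0.05 in limma. There edgeR called 1 of them and DESeq2 called 5. Slc5a3, the sodium-coupled transporter of myo-inositol, measured 21.1, 14.6, 15.49 and 15.6 CPM in control and 13, 11.3, 10.8 and 11.2 CPM in dKO atria. All 4 dKO atria were lower, by log2 -0.48 ± 0.12 (adjusted p = 0.0289). Without control atrium 1 or 4 or dKO atrium 2 or 3 the adjusted p was 0.0558 to 0.0849 (log2 -0.51 to -0.37), and within the balanced title number it was 0.0611 (-0.63). The exons of Slc5a3 are shared with Mrps6 on the same strand, and Mrps6 fell by 0.42 on the log2 scale in dKO atria (adjusted p = 0.0117), so that reads of this locus are uncertain between both annotations. Slc35a4, by CPM the most abundant carrier of the Golgi class after Slc35f5, measured 52.4 ± 1.94 CPM in control and 50.9 ± 4.30 CPM in dKO atria and 53.9 ± 2.78 and 54.3 ± 0.999 CPM in ventricles. None of the 21 carriers of the Golgi apparatus and endoplasmic reticulum was called by limma or edgeR in either dKO comparison, with 2 in atria and 4 in ventricles at an unadjusted p under 0.05, and DESeq2 called 1 in atria and 0 in ventricles.

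**Figure D3:**
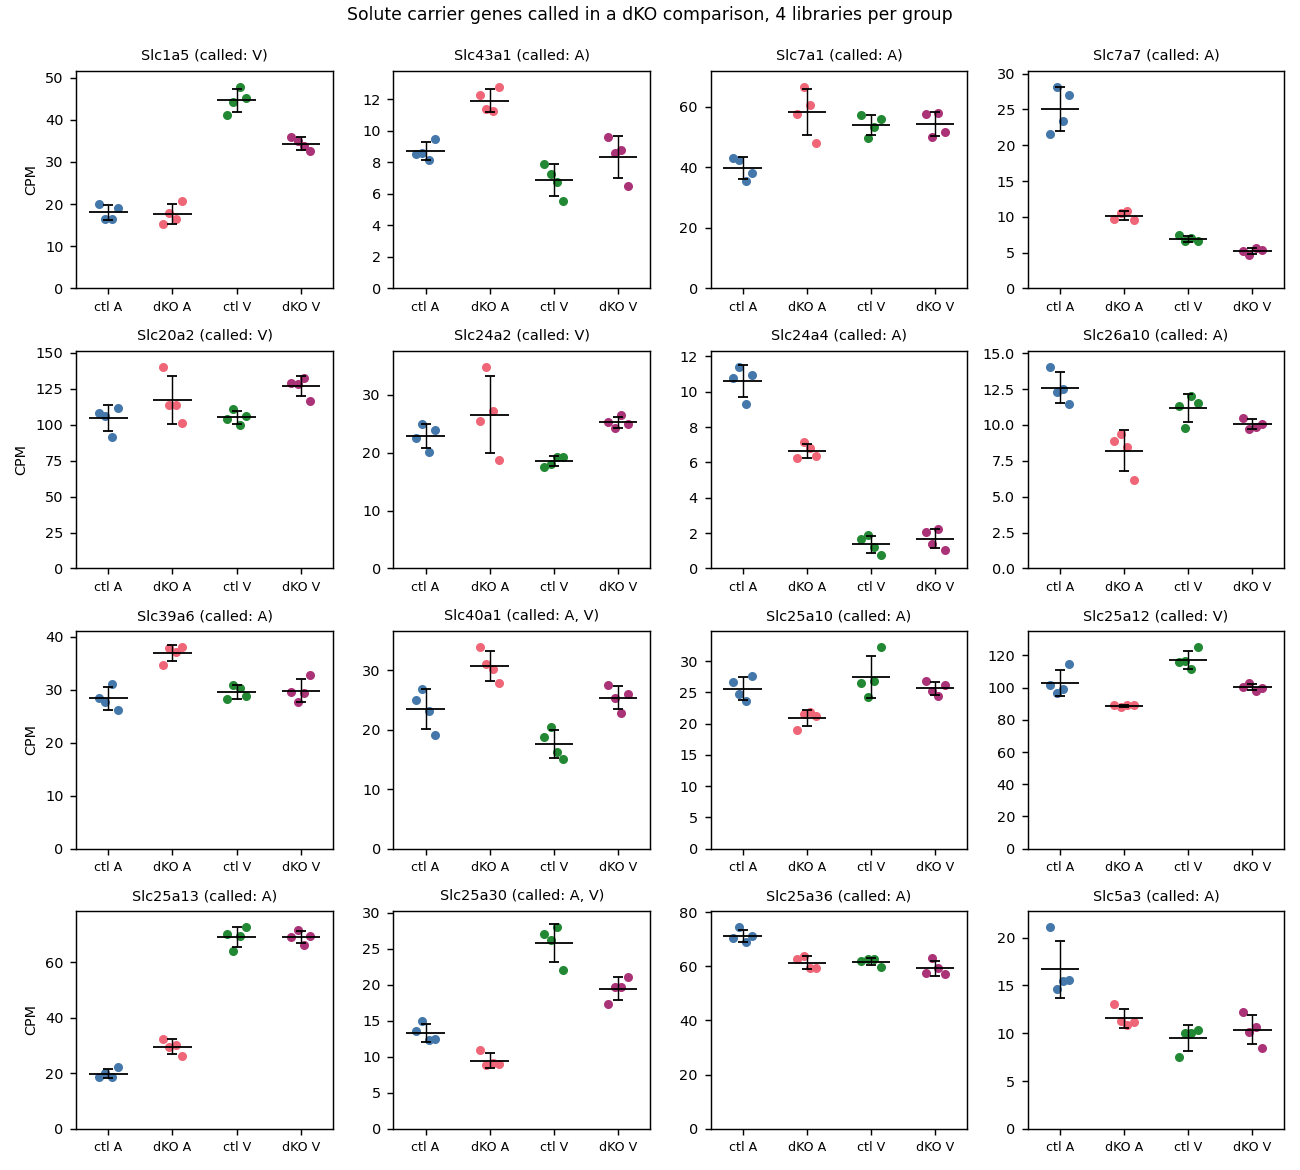
Level in CPM of each of the 16 solute carrier genes called in at least 1 dKO comparison, 1 panel per gene with its own axis from 0, points for libraries, and bars for the mean and SD of 4 libraries (ctl, control; A, atria; V, ventricles; the title of each panel names the chamber of the call). Slc7a7 and Slc24a4 in dKO atria lie between the control atria and the ventricles, and Slc40a1 is higher in dKO than in control libraries in both chambers.

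Whether the dKO difference itself differed between chambers was tested as ventricles minus atria in 1 fit of all 16 libraries. This test called 5 members (3.23%), against 2.64% of genes tested and 2.89% of those at 5 CPM or more. For 4 of them the dKO difference was lower in ventricles than in atria and for 1 it was higher, where 1.33% and 1.31% of all genes tested were called in these directions. Slc25a13 differed by -0.56 ± 0.09 (adjusted p = 0.00147), with a rise of 0.56 in atria and 0.00 in ventricles, and was called in every alternative fit. Slc7a1 differed by -0.53 ± 0.12 (adjusted p = 0.0158), with 0.53 in atria and 0.00 in ventricles, and lost the call without control embryo 3 or 4 or dKO embryo 2 (log2 -0.49 to -0.43, adjusted p 0.0535 to 0.0883). Within the balanced title number it lost the call as well (adjusted p = 0.0635). Slc39a6 differed by -0.36 ± 0.09 (adjusted p = 0.0292), with 0.37 in atria and 0.01 in ventricles. Its call was lost in edgeR (adjusted p = 0.0729), in DESeq2 (0.153), within the balanced title number (0.093) and without control embryo 1, 2 or 4 or dKO embryo 2 or 3 (log2 -0.38 to -0.31, adjusted p 0.0638 to 0.127). Slc6a6, the taurine transporter, measured 55.3 ± 1.95 CPM in control atria and 63.3 ± 7.91 CPM in dKO atria. In ventricles it measured 87.0 ± 2.22 CPM in control and 75.2 ± 5.05 CPM in dKO embryos. Its dKO difference was called in neither chamber (0.18 with adjusted p = 0.241 and -0.21 with adjusted p = 0.0737), and the difference between them was -0.40 ± 0.10 (adjusted p = 0.0305). That call was lost without any 1 control embryo or without dKO embryo 1, 2 or 3 (log2 -0.43 to -0.34, adjusted p 0.0559 to 0.12) and, at adjusted p = 0.0512, without the embryo block. It was also lost in edgeR (adjusted p = 0.0551) and within the balanced title number (0.0747). Slc7a7 differed the other way, by 0.87 ± 0.13 (adjusted p = 0.000552), with -1.22 in atria and -0.35 in ventricles. Within the balanced title number its adjusted p was 0.161 (log2 0.74). The test called 3 members without control embryo 1, 2 or 3 or dKO embryo 3, and 2 without control embryo 4 or dKO embryo 2. With quantile normalization 2 were higher and 4 lower.

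The comparison of ventricles with atria in control embryos shows how transporter genes differ between chambers without Cre. Of the 155 members 30 were higher and 52 lower in ventricles. The mitochondrial carrier Slc25a13, the glutamine carrier Slc1a5 and the cation-chloride cotransporters Slc12a2 and Slc12a7 were the highest in ventricles, each by at least a log2 difference of 1. The zinc and manganese importer Slc39a8, Slc24a4 and the amino acid transporter Slc36a2 were among the lowest, at 13% to 15.2% of the atrial level. Slc24a4 and Slc36a2 reached the mean of 5 CPM through atria alone, so that the direction of their difference follows from the member rule.

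The 82 calls are 52.9% of the members, against 46.9% of genes tested and 50.2% of those at 5 CPM or more. By direction, 19.4% of members were higher in ventricles, against 26.4% of genes tested and 30.2% of those at 5 CPM or more, and 33.5% were lower, against 20.5% and 20%. The median member differed by log2 -0.11 and the median gene tested by 0.03. With edgeR the split was 28 higher and 58 lower among members, against 22% higher and 23% lower among all genes tested there. The libraries of the chambers did not overlap for 27 members that were higher (17.4%, against 24.4% of genes tested) and 47 that were lower (30.3%, against 18.9%). Calls past a fold of 2 were fewer, with 4 members higher (2.58% against 2.27%) and 7 lower (4.52% against 4.14%). A gene can reach the mean of 5 CPM through 1 chamber alone and then has to differ. Slc24a4, Slc25a27, Slc36a2 and Slc9a9 were at 5 CPM or more in both atrium groups and under it in both ventricle groups, and Slc8a2 was the reverse case.

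**Figure D4:**
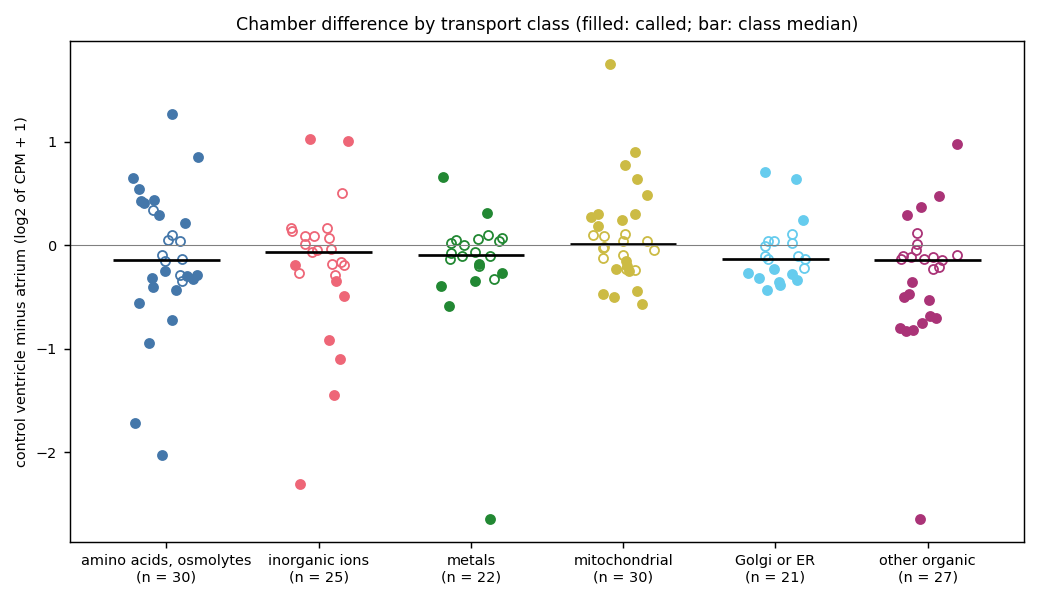
Difference between control ventricles and control atria of the 155 genes on log2(CPM + 1), by substrate class, with filled points for called genes, open points for the others and a bar for the class median. The median lies at 0.01 for mitochondrial carriers and between -0.07 and -0.15 for the other 5 classes, and Slc25a13 at 1.75 and Slc39a8 at -2.64 are among the points farthest from 0.

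Among carriers of amino acids, peptides and osmolytes 9 were higher and 12 lower in ventricles. For this class and each class below, the shares over all genes tested were 26.4% higher and 20.5% lower, and no class was tested as a set. Slc1a5 measured 19.9, 16.4, 16.5 and 19.1 CPM in control atria and 41.2, 44.3, 47.8 and 45.3 CPM in control ventricles (log2 1.27 ± 0.08, adjusted p = 5.86e-10). Slc6a8, the creatine transporter, rose from 50.7 ± 3.56 to 91.9 ± 5.95 CPM (0.85 ± 0.05, adjusted p = 3.92e-10), and Slc6a6 from 55.3 ± 1.95 to 87.0 ± 2.22 CPM (0.65 ± 0.07, adjusted p = 3.25e-07). The abundant Slc38a2 was higher at 355 ± 15.3 against 263 ± 16.7 CPM (0.43). Slc36a2, which takes up glycine and proline with protons, measured 6.48, 9.11, 8.21 and 7.29 CPM in atria and 1.10, 1.92, 0.881 and 0.824 CPM in ventricles (-2.03 ± 0.16, adjusted p = 1.13e-08). Slc7a7 was lower by -1.72 ± 0.09 (adjusted p = 3.13e-11), at 27.5% of the atrial level, and the glutamate transporter Slc1a3 by -0.94 ± 0.13 (adjusted p = 1.32e-05), at 6.32 ± 1.53 against 12.9 ± 0.778 CPM. The carriers of arginine thus lay on both sides, with Slc7a7 lower and Slc7a1 higher in ventricles (0.44 ± 0.08, adjusted p = 0.000256).

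Among mitochondrial carriers 10 were higher and 8 lower. Slc25a13 had the largest rise of all members, from 19.8 ± 1.68 CPM in atria to 69.2 ± 3.55 CPM in ventricles (log2 1.75 ± 0.06, adjusted p = 2.57e-13). Slc25a30 measured 13.3 ± 1.24 and 25.8 ± 2.62 CPM (0.90 ± 0.09, adjusted p = 1.85e-07), and Slc25a5 266 ± 24.2 and 454 ± 26.6 CPM (0.77 ± 0.06, adjusted p = 6.51e-09). Slc25a4 differed less, at 1268 ± 110 and 1496 ± 53.7 CPM (0.24 ± 0.07, adjusted p = 0.00536), so that Slc25a5 made up 23% ± 0.448 of the sum of both ADP/ATP carriers per kilobase in atria and 30.3% ± 0.555 in ventricles. Close copies of these carriers elsewhere in the genome make the division of reads between them uncertain. The mitochondrial carriers lower in ventricles changed less, with Slc25a42 lowest at -0.56.

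Among ion carriers 2 were higher and 7 lower. Slc12a2, which brings in sodium, potassium and chloride, measured 25.4, 29.6, 31 and 25.7 CPM in atria and 58.6, 56.2, 56.5 and 60.4 CPM in ventricles (log2 1.03 ± 0.06, adjusted p = 1.86e-10). Slc12a7, which carries potassium and chloride out, measured 58.8, 54.9, 54.7 and 55.4 CPM in atria and 115, 113, 112 and 112 CPM in ventricles (1.003 ± 0.05, adjusted p = 4.11e-11). Both carriers, which work in opposite directions, thus lay at 207% and 202% of the atrial level, and Slc12a2 made up 36.6% ± 2.91 of their sum per kilobase in atria and 37.3% ± 0.838 in ventricles. The exchangers Slc24a4 and Slc24a3 were lower, by -2.31 ± 0.15 (adjusted p = 6.74e-10) and -1.44 ± 0.12 (adjusted p = 9.21e-09). Slc24a4 measured 10.8, 11.4, 9.28 and 11 CPM in atria and 1.66, 1.87, 1.21 and 0.787 CPM in ventricles, and Slc24a3 19.4 ± 0.918 and 6.61 ± 1.33 CPM. Slc26a11, an anion transporter, was lower by -0.92 ± 0.09 (adjusted p = 2.64e-07). Slc4a1, the anion exchanger band 3 of red blood cells, measured 18.3, 6.91, 7.45 and 40.1 CPM in atria and 6.09, 5.97, 7.26 and 5.11 CPM in ventricles (-1.10 ± 0.37, adjusted p = 0.0193). Control atria 4 and 1 stand above the others, and the call was lost without control embryo 4 (-0.55, adjusted p = 0.176) or control embryo 1 (-0.99, adjusted p = 0.0906). Within the balanced title number it was lost as well (-0.81, adjusted p = 0.126). Of the 13 erythroid markers 11 are listed, and they summed to 2559 to 5696 CPM in control atria and 2323 to 3515 CPM in control ventricles, with 2 of 9 tested called lower in ventricles. Their part in the Slc4a1 difference was not tested.

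Among metal transporters 2 were higher and 6 lower. Slc39a8 measured 67.9, 62.2, 61.0 and 65.9 CPM in atria and 11.2, 11.9, 7.78 and 7.71 CPM in ventricles (log2 -2.64 ± 0.13, adjusted p = 1.1e-11). Every atrial library was more than 5 times as high as every ventricular one. Slc40a1 was lower by -0.39 ± 0.10 (adjusted p = 0.00234), and Slc41a3, of a family of magnesium transporters, was higher at 9.15 ± 0.929 against 5.44 ± 0.361 CPM (0.65 ± 0.12, adjusted p = 0.000143). Slc30a9, the most abundant zinc transporter of the class by CPM, was higher by 0.31 ± 0.05 (adjusted p = 6.03e-05).

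Of the carriers of other organic solutes 4 were higher and 11 lower. Slc22a17 and Slc22a23, of a family of organic ion transporters, were lower by -0.80 ± 0.11 (adjusted p = 8.64e-06) and -0.82 ± 0.12 (adjusted p = 2.37e-05), and Slc44a2, of a family of choline transporters, by -0.82 ± 0.05 (adjusted p = 3.94e-10). The nucleoside transporter Slc29a2 was higher, at 19.3 ± 0.968 against 9.41 ± 1.55 CPM (0.97 ± 0.11, adjusted p = 1.13e-06). Among Golgi and endoplasmic reticulum carriers 3 were higher and 8 lower. Slc37a4, which brings glucose 6-phosphate into the endoplasmic reticulum, was higher at 23.8 ± 1.49 against 14.2 ± 1.31 CPM (0.71 ± 0.09, adjusted p = 2.87e-06), and Slc35f5 at 90.4 ± 1.19 against 57.6 ± 1.33 CPM (0.64 ± 0.04, adjusted p = 1.33e-09). Under a pseudocount of 5 in place of 1 the differences of Slc24a4 and Slc36a2 shrank to -1.29 and -1.05, since their ventricular levels lie near the pseudocount.

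**Figure D5:**
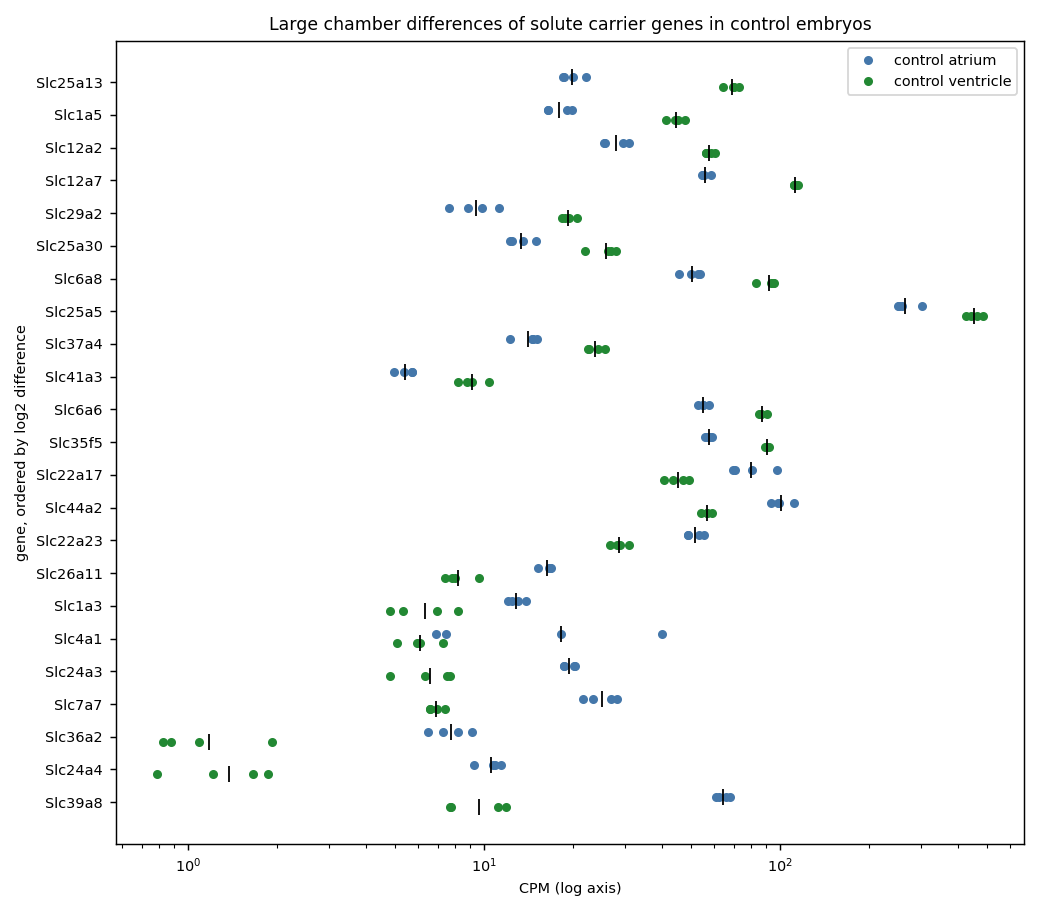
Levels in CPM (log axis) of 23 solute carrier genes with large called differences (12 higher and 11 lower in ventricles) between control ventricles (green) and control atria (blue), 1 point per library and a tick for the mean, ordered by the log2 difference. The chambers are apart for all of them but Slc4a1, whose atrial points spread from 6.91 to 40.1 CPM.

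Genes that work with these transporters were described in 5 lists. As background for each list, 7.47% of all genes tested were called in dKO atria and 2% in dKO ventricles. Of 19 tested genes of the sodium pump, the kinases that control cation-chloride cotransport and the partners of ion exchangers, 3 rose and 3 fell in dKO atria, and 1 rose and 2 fell in dKO ventricles. In atria edgeR called 6 of them and DESeq2 7, and in ventricles 2 and 4. Within the balanced title number 4 were called in atria and 0 in ventricles. The kinase Stk39, which phosphorylates family 12 cotransporters under the control of WNK kinases, measured 159 ± 6.17 CPM in control and 87.3 ± 3.90 CPM in dKO atria (log2 -0.85, adjusted p = 4.24e-06). Wnk1 fell in both chambers, by -0.41 in atria (adjusted p = 0.00544) and -0.28 in ventricles (adjusted p = 0.00255). The family 12 member Slc12a2 measured 27.9 ± 2.77 CPM in control and 33.4 ± 2.24 CPM in dKO atria, and its difference was not called (0.25, adjusted p = 0.0955). The sodium pump subunit Atp1b1 rose in atria (0.29, adjusted p = 0.00909) and fell in ventricles (-0.21, adjusted p = 0.0393), whereas Atp1b2 rose in both (0.26, adjusted p = 0.0491, and 0.23, adjusted p = 0.0213). Slc9a3r2, a scaffold of sodium-proton exchangers, rose in atria (0.42, adjusted p = 0.00795).

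Of 9 genes of mitochondrial membrane transport, Ckmt2, the creatine kinase of muscle mitochondria, fell in dKO atria, from 11 ± 0.854 to 6.99 ± 0.425 CPM (log2 -0.58, adjusted p = 0.00357), and 0 were called in ventricles by limma, edgeR or DESeq2, with 0 at an unadjusted p under 0.05. Of 4 creatine genes, Gatm, which makes the precursor of creatine, rose in dKO atria from 13.9 ± 1.13 to 20.5 ± 0.840 CPM (0.53, adjusted p = 0.00197), and the creatine transporter Slc6a8 measured 50.7 ± 3.56 and 51.1 ± 1.94 CPM there (0.01, adjusted p = 0.937). Ckm, the creatine kinase of muscle cytosol, and Gamt, which makes creatine, were not called, at -0.39 (adjusted p = 0.0818) and -0.33 (adjusted p = 0.0817), and DESeq2 called 3 of the 4 genes. None of 9 tested genes of the amino acid response was called in either dKO comparison by limma, edgeR or DESeq2, with 0 in atria and 2 in ventricles at an unadjusted p under 0.05 in limma. None of 11 metal handling genes was called by limma or edgeR, with 3 in atria and 2 in ventricles at an unadjusted p under 0.05 in limma, and DESeq2 called 1 in each chamber. As a mean over its genes, the amino acid response list was lower by -0.11 in dKO ventricles and the mitochondrial membrane list by -0.09 in dKO atria (two-sided exact permutation p = 0.0286 each, the smallest that the design allows). The 8 other means of the 5 lists lay between -0.06 and 0.14 (exact permutation p 0.0857 to 0.743).

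Markers of other cell types differed along with the atrial results. As background for their calls, 4.04% of all genes tested were called higher and 3.43% lower in dKO atria. In dKO ventricles these shares were 0.989% and 1.01%. The mean log2 level of 6 smooth muscle and pericyte markers was higher by 0.73 in dKO atria (two-sided exact permutation p = 0.0286, the smallest that 4 against 4 libraries allow), with 4 of 6 called higher and a summed level of 919 to 1263 CPM against 570 to 693 CPM in control atria. The 5 epicardial markers were higher by 0.31 (exact permutation p = 0.0286, Msln called) and the 7 fibroblast markers by 0.41 (exact permutation p = 0.0571, Dcn and Tcf21 called). The 6 myocyte markers were lower by -0.19 (exact permutation p = 0.0571), with summed levels of 19750 to 22090 CPM in dKO and 22940 to 26300 CPM in control atria. In dKO ventricles the 5 atrial myocyte markers were higher by 0.48, with Nppa and Myl4 called, and the 5 ventricular myocyte markers lower by -0.25, with Irx4 called (exact permutation p = 0.0286 each). The atrial myocyte markers were also higher in dKO atria, by 0.28 (exact permutation p = 0.0286, Sln and Nppa called), where the ventricular ones differed by -0.31 (exact permutation p = 0.286, Myl3 called lower). In ventricles the differences of the smooth muscle, epicardial, fibroblast and general myocyte lists lay between -0.00 and 0.09 (exact permutation p 0.514 to 0.971). The erythroid list was higher there by 0.28 (exact permutation p = 0.114). Of its 9 tested markers 0 were called by limma, with 3 at an unadjusted p under 0.05. The macrophage, endothelial and neural lists differed in ventricles by -0.03 to 0.07 (exact permutation p 0.171 to 0.8). The macrophage, endothelial, erythroid and neural lists differed by -0.26 to 0.38 in atria (exact permutation p 0.143 to 0.714), with C1qb called higher and Kdr called lower by limma. The part of these cells and of chamber identity of the myocytes in the differences of transporter genes was not tested. Between chambers, 20.5% of all genes tested were called lower and 26.4% higher in control ventricles. All 5 epicardial markers were called lower there, and of the fibroblast markers 5 were lower and 1 higher. All 3 neural and glial markers tested were lower (median -1.43), as were 2 of 7 macrophage markers, while 4 of 6 smooth muscle and pericyte markers were higher and 2 lower, and 3 of 6 endothelial markers lay on each side. The part of these cells in the 52 members lower in ventricles was not tested either.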

How the data were processed

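RNA was measured in 16 libraries of atria and ventricles from 8 embryos. Per the labels' protocols, NEBNext Ultra libraries were prepared from the polyadenylated fraction of 20 ng RNA, with single-end reads of 60 bases. The tools cutadapt and RSEM 1.3.1 were used on GRCm38, per the submitters' processing notes. The deposited values are CPM of 16118 genes. Per library they summed to 753687 to 782986 CPM in atria and 804313 to 841274 CPM in ventricles. The scale is thus not set by the listed reads alone, and its part in the chamber differences was not tested. For the normalization method, gene filter, annotation release and strand setting, the sources used here give nothing. Within a library, values lie on steps of 1 read shifted by 0.5 of a step, and 100% of the values were whole reads within a tolerance of 0.001. Precision follows from these 7.88 to 23 M (megareads) per library and from the spread between embryos.

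limma 3.58.1 (R 4.3.3) was run on log2(CPM + 1) of the 13950 genes whose mean reached 1 CPM. Its tests were two-sided with a trend of variance on level, and p-values were adjusted by Benjamini-Hochberg over all of these genes. Such differences understate changes of genes near the pseudocount of 1. Each dKO comparison used the 8 libraries of its chamber. The control chamber comparison and the test of ventricular minus atrial dKO differences used all 16 libraries with embryo as a block, since the same embryo gave both chambers (consensus correlation 0.108). These comparisons share the control libraries. Marker lists and the targeted genes were compared with exact permutation tests. The tests were run on simulated counts drawn with a fixed dispersion and no embryo effect. Such counts check neither the embryo block nor the spread between these embryos. Alternatives were pseudocounts of 0.5 and 5, no filter or a minimum of 5 CPM, TMM and quantile scaling, edgeR 4.0.16 and DESeq2 1.42.0 on the recovered reads, the title number as a covariate, the title number with 2 embryos of each genotype alone, no block, and leaving out each library or embryo.

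The members, substrate classes, lists and tests were chosen with earlier results of these data known. Named were all members called in a dKO comparison or in the difference between chambers, the 12 largest called chamber differences each way, the 2 most abundant of each class, the genes next to the 5 CPM limit and up to 3 called genes of each companion list per dKO comparison, except 1 gene that is not reported here. The rule does not cover Slc3a2, Slc6a17, Slc25a11, Slc25a39, Slc25a42, Slc39a1, Slc9a9, Ckm, Gamt and the sets shown per kilobase, which were picked with their values in view. All 155 members matched GENCODE M21. Exons of 20 overlap other genes of the table, on the opposite strand for 17.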

Additional observations from a re-analysis of the deposited data

Results flagged for a closer look

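In groups of 4 libraries, 11 of 172 groups from 43 named members held a library set apart from the other 3 by Dixon's test, where chance sets apart about 1 group in 20. Low libraries were Slc25a12 in dKO atrium 2 (87.9 CPM, others 89.1 to 89.2), Slc26a11 in control atrium 3 (15.2, others 16.7 to 16.8), Slc5a3 in control ventricle 1 (7.49, others 9.98 to 10.4) and Slc6a8 in control ventricle 1 (83.0, others 93.8 to 95.6). High libraries were Slc25a30 in dKO atrium 1 (10.9 CPM, others 8.81 to 9.07), Slc25a5 in control atrium 4 (301.9, others 251 to 258), Slc35f5 in dKO ventricle 4 (97.0, others 92.4 to 93.2) and Slc4a1 in dKO atrium 3 (17.1, others 8.18 to 9.13). Also high were Slc5a3 in control atrium 1 (21.1 CPM, others 14.6 to 15.6), Slc6a6 in control ventricle 3 (90.3, others 85.4 to 86.2) and Slc6a8 in dKO atrium 3 (54.0, others 49.99 to 50.2). Control embryo 1 held the highest Slc5a3 of the control atria and the lowest of the control ventricles.

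The test of the difference itself separated the dKO effects of both chambers for 5 members (ventricles minus atria, limma). These were Slc25a13 (-0.56), Slc7a1 (-0.53), Slc6a6 (-0.40), Slc39a6 (-0.36) and Slc7a7 (0.87).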

How the results depend on the processing

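No called difference of a named member changed sign in any alternative run. For called differences of named members, 754 alternative values kept the call and 102 missed the threshold. The count of members called in dKO atria was 12, against 19 with DESeq2, 7 within the balanced title number (2 embryos per genotype) and 6 to 14 leaving out 1 library. In dKO ventricles it was 6, against 3 with the title number as a covariate, 0 within the balanced title number and 2 to 7 leaving out 1 library. For ventricular minus atrial dKO differences it was 5, against 3 with edgeR, 1 within the balanced title number and 2 to 6 leaving out 1 embryo. The control chamber count of 82 ranged from 70 to 88 leaving out 1 embryo. Without the replicate block of embryo, 79 members were called between control chambers and 4 for the difference of dKO effects, where Slc6a6 lost its call. Genotypes were not paired, because the replicate numbers come from accession order and mark no shared litter. Depth limits members near 5 CPM most, and dKO ventricles were the shallowest libraries.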

Other observations

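Slc6a17, a vesicular transporter of neutral amino acids, had the largest SD between embryos of all members when the smaller SD of both chambers is taken on the log2 scale, and was looked at after its values were seen. It measured 22.5, 22.4, 13.6 and 2.56 CPM in control atria and 30.2, 34.3, 18.5 and 2.36 CPM in ventricles of the same embryos. In dKO embryos it measured 0.136, 17.4, 10.7 and 14.5 CPM in atria and 1.27, 29.3, 13.7 and 16.4 CPM in ventricles. Control embryo 4 and dKO embryo 1 were thus low in both chambers, 1 of each genotype, and the remaining 6 embryos were at 10.7 CPM or more in both. Deviations from the group means had an SD of at least 1.48 on the log2 scale in each chamber, where the next member (Slc4a1) had 0.329 and the median member 0.0958. Over the 8 embryos the deviations in atria and ventricles went together (Pearson r = 0.978, given as a description). Neither dKO difference of Slc6a17 was called by limma (log2 -0.73 ± 0.85 in atria with adjusted p = 0.701, and -0.51 ± 0.79 in ventricles with adjusted p = 0.85).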
